A study of Homo sapiens with 6 samples.

Results

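Cytosolic ribosomal protein (RP) genes encode the proteins that assemble with ribosomal RNA into the large and the small ribosomal subunit. They were taken by symbol from the expression table: every RPL or RPS gene with a number and, where present, the ending A, L, L1, X or AL, together with RPLP0, RPLP1, RPLP2 and RPSA. The rule found 85 genes of the 17860 listed, 53 of the large and 32 of the small subunit. RPL10L was dropped because its value was missing in the first shMSLN sample, and its estimated counts in the other samples were 0, 2.28 and 0 in shNC and 0 and 1 in shMSLN. All other 84 genes passed the filter on low counts.

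RNA-Seq was performed on HCC1806/HM3 cells, 3 samples with a control shRNA (shNC) and 3 with an shRNA against MSLN (shMSLN), to look for genes that change when MSLN is reduced. MSLN encodes mesothelin, a protein held at the cell surface by a lipid anchor. HCC1806 is a human triple-negative breast cancer line of squamous type, and HM3 is its derivative obtained through repeated injection into nude mice and recovery from liver metastases. Both shRNAs were delivered by lentivirus with a neomycin resistance gene and the cells were selected with G418, so the controls carried the vector and the drug selection as well. The sources used here do not say which MSLN shRNA the sequenced cells carried, or whether the 3 samples of a group came from separate cultures, so that the p-values given here measure the spread between these samples, which may be technical.

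MSLN was at 231, 226 and 227 CPM (counts scaled by library size) in shNC and at 37.1, 36.2 and 35.4 CPM in shMSLN, a log2 fold change of -2.65. Of the squamous and basal markers, KRT5 (1741 to 2346 TPM, a level per transcript length), KRT17, TP63 and SFN were high in all samples, whereas KRT14 (4.58 to 5.92 TPM) and DSG3 (2.84 to 6.01 TPM) were low. Markers of fibroblasts (COL1A2), endothelium (PECAM1) and hepatocytes (ALB) stayed below 1 TPM in every sample, while COL1A1 (11.2 to 12.1 TPM), CD68 (28.1 to 34.1 TPM), PTPRC (2.26 to 4.19 TPM) and VWF (1.15 to 1.81 TPM) were above it. Of the hormone receptors, ESR1 was at 6.32 to 9.5 TPM and PGR at 0 to 0.01 TPM. Total estimated counts ranged from 17507837 to 18512135 per sample. The shMSLN replicates 2 and 3 stood apart from the other samples in 2 ways. Among the genes with over 100 reads, 47.7% and 47.8% of their estimated counts were whole numbers, against 3.36% to 7.02% in the other 4 samples. They also differed from each other by little more than counting noise, with a mean chi-square per gene of 1.25, where counting noise alone gives 1 and the other pairs within a group gave 2.35 to 6.49. Over the 84 RP genes that mean was 1.49 for this pair and 14.6 to 39.2 for the other pairs. Whether these libraries came from separate cultures was not tested, and counts of calls in the main gene groups are therefore also given with their mean used as 1 sample.

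A ribosome carries nearly every RP in a single copy, and the cell makes them in matched amounts. In vertebrates their mRNAs begin with a run of pyrimidines (C and T) at the cap, the 5′ terminal oligopyrimidine or TOP motif, through which mTOR signalling and the binding protein LARP1 set how much of each mRNA is translated or stored. Some RPs also act outside the ribosome, among them RPL5 and RPL11, which join the 5S ribosomal RNA and can bind MDM2 when ribosome assembly is disturbed.

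Pyrimidine runs near the start were common in the canonical genes and rarer in the paralogs. In the RefSeq promoter table (GRCh38.p14), 68 of the 85 genes had an entry. These windows cover the 10 bases before the annotated start and the 20 bases from it on, on the gene's own strand, with the longest run of C and T in capitals. Where a gene had several starts, the start with the longest run is shown. RPL17, RPL11, RPS24, RPL4 and RPL19 are shown because they are among the 8 largest falls in shMSLN, RPS6, RPLP0 and RPL39 because theirs were not called, and RPL22L1, RPL26L1 and RPS27L as paralogs.
RPL17: TTCCCTaagcagcctgaggtgagtgtttct
RPL11: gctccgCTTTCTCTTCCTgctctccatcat
RPS24: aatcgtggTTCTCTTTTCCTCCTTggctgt
RPL4: cgggagtggtaagcaCTTCCTTTTCCTgtg
RPL19: agCTCTTTCCTTTCgctgctgcggccgcag
RPS6: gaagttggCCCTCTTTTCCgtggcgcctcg
RPLP0: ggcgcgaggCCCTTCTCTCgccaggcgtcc
RPL39: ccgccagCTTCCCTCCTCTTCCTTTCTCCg
RPL22L1: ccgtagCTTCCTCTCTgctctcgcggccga
RPL26L1: TCCaggggtcggcgaacgaaacgcggagct
RPS27L: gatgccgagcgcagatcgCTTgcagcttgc

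These windows lie at chr18:49492446-49492475 (minus strand) for RPL17, chr1:23691796-23691825 (plus) for RPL11, chr10:78033853-78033882 (plus) for RPS24, chr15:66504836-66504865 (minus) for RPL4 and chr17:39200313-39200342 (plus) for RPL19. Those of the genes not called lie at chr9:19380217-19380246 (minus) for RPS6, chr12:120201092-120201121 (minus) for RPLP0 and chrX:119791611-119791640 (minus) for RPL39. Those of the paralogs lie at chr3:170870176-170870205 (minus) for RPL22L1, chr5:172958719-172958748 (plus) for RPL26L1 and chr15:63157458-63157487 (minus) for RPS27L. In RPL17 the run lies before the annotated start, and in RPL4 it begins after it. A run of at least 6 pyrimidines lay in this window in 60 of the 68 RP genes (88.2%), against 9584 of 27305 genes with an entry (35.1%). Such a run need not begin at the cap. Among canonical genes it was present in 58 of 62. Among the 6 paralogs with an entry it was present in 2 (33.3%), and RPL26L1 and RPS27L had no run longer than 3 bases. The run was present in 29 of the 32 RP genes called lower in shMSLN (90.6%) and in 31 of the 35 not called (88.6%). The ETS-type motif CCGGAAG, searched on both strands in the 300 bases around the start, occurred in 24 of the 68 RP genes (35.3%) and in 12.2% of all genes with an entry. It was found in 14 of the 32 genes called lower and in 10 of the 35 not called. The TATA motif TATAAA was found in 7 of the 68 (10.3%), against 14% of all genes, and the E-box CACGTG in 5 (7.35%), against 8.77%.

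RP mRNAs were abundant and, as a group, slightly lower in shMSLN. They took up 7.39%, 7.04% and 7.34% of all estimated counts in shNC and 7.0%, 6.85% and 6.82% in shMSLN, with no overlap between the groups (mean 7.26% ± 0.188 against 6.89% ± 0.0953, SD, n = 3). The lowest shNC sample and the highest shMSLN sample lay close together, so the gap rests on a small difference. On the per-length TPM scale the share was 19.7% ± 0.253 in shNC and 18.8% ± 0.187 in shMSLN. Per-sample medians over the 84 genes, on the log2 scale against the shNC mean, were 0.02, -0.06 and 0.02 in shNC and -0.08, -0.10 and -0.11 in shMSLN. The second shNC sample thus lay between the other shNC samples and the shMSLN samples. In these bulk samples a smaller share of RP reads and a larger share of reads from other genes cannot be told apart.

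**Figure D1:**
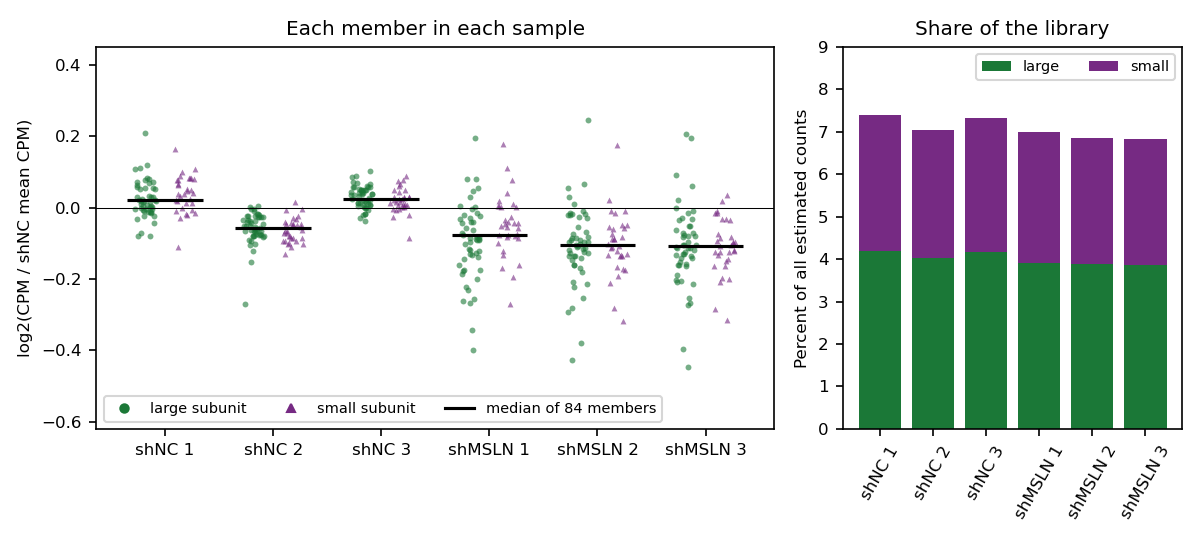
Left, each ribosomal protein gene in each of the 6 samples as log2 of its TMM-scaled CPM over its shNC mean, with circles for the large and triangles for the small subunit and a bar at the median of the 84 genes (RPL3L is in the median but its point is left out of the plot). Right, stacked bars give the percent of all estimated counts taken by both subunits, which falls from 7.04% to 7.39% in shNC to 6.82% to 7.0% in shMSLN.

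Of the 84 genes tested by edgeR's quasi-likelihood test across all 14552 genes, 39 were called lower in shMSLN at an adjusted p below 0.05, 1 was called higher (RPL3L) and 44 were not called. Over all genes tested, 34.6% were called, 18% lower and 16.6% higher. Among the 2282 genes at or above 100 CPM, which are nearer to RP genes in level, 50.7% were called, 29.9% lower and 20.7% higher, so 46.4% of the RP genes called lower compares with 29.9% there. The log2 fold change was below 0 in 75 of the 84 RP genes (89.3%), against 49.6% of all genes and 55.8% of those at or above 100 CPM. Every shMSLN sample lay below every shNC sample in 40 RP genes (47.6%), against 23.5% of all genes and 34.3% of those at or above 100 CPM. The opposite order held in 1 RP gene, against 22.7% of all genes. With the means of shMSLN replicates 2 and 3 taken as 1 sample, 22 RP genes (26.2%) were called lower, all of them among the 39, and RPL3L stayed higher. In that fit 13.5% of all genes and 22.6% of those at or above 100 CPM were called lower. The RP share called lower was close to the latter. Called higher were 12.4% of all genes and 16.3% of those at or above 100 CPM, against 1.19% of RP genes.

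The changes were small. The median log2 fold change over the 84 genes was -0.09, against 0.00 for all genes and -0.02 for those at or above 100 CPM. Among the 40 RP genes called, the median size was 0.14 on the log2 scale, compared with 0.29 for all called genes. Of these 40, 6 changed by more than 1.2-fold and 0 by more than 2-fold. The median coefficient of variation was 4.24% within shNC and 1.87% within shMSLN. The latter includes replicates 2 and 3, whose mean chi-square over RP genes was 1.49. Other pairs within a group gave 14.6 to 39.2, where counting noise alone gives 1.

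**Figure D2:**
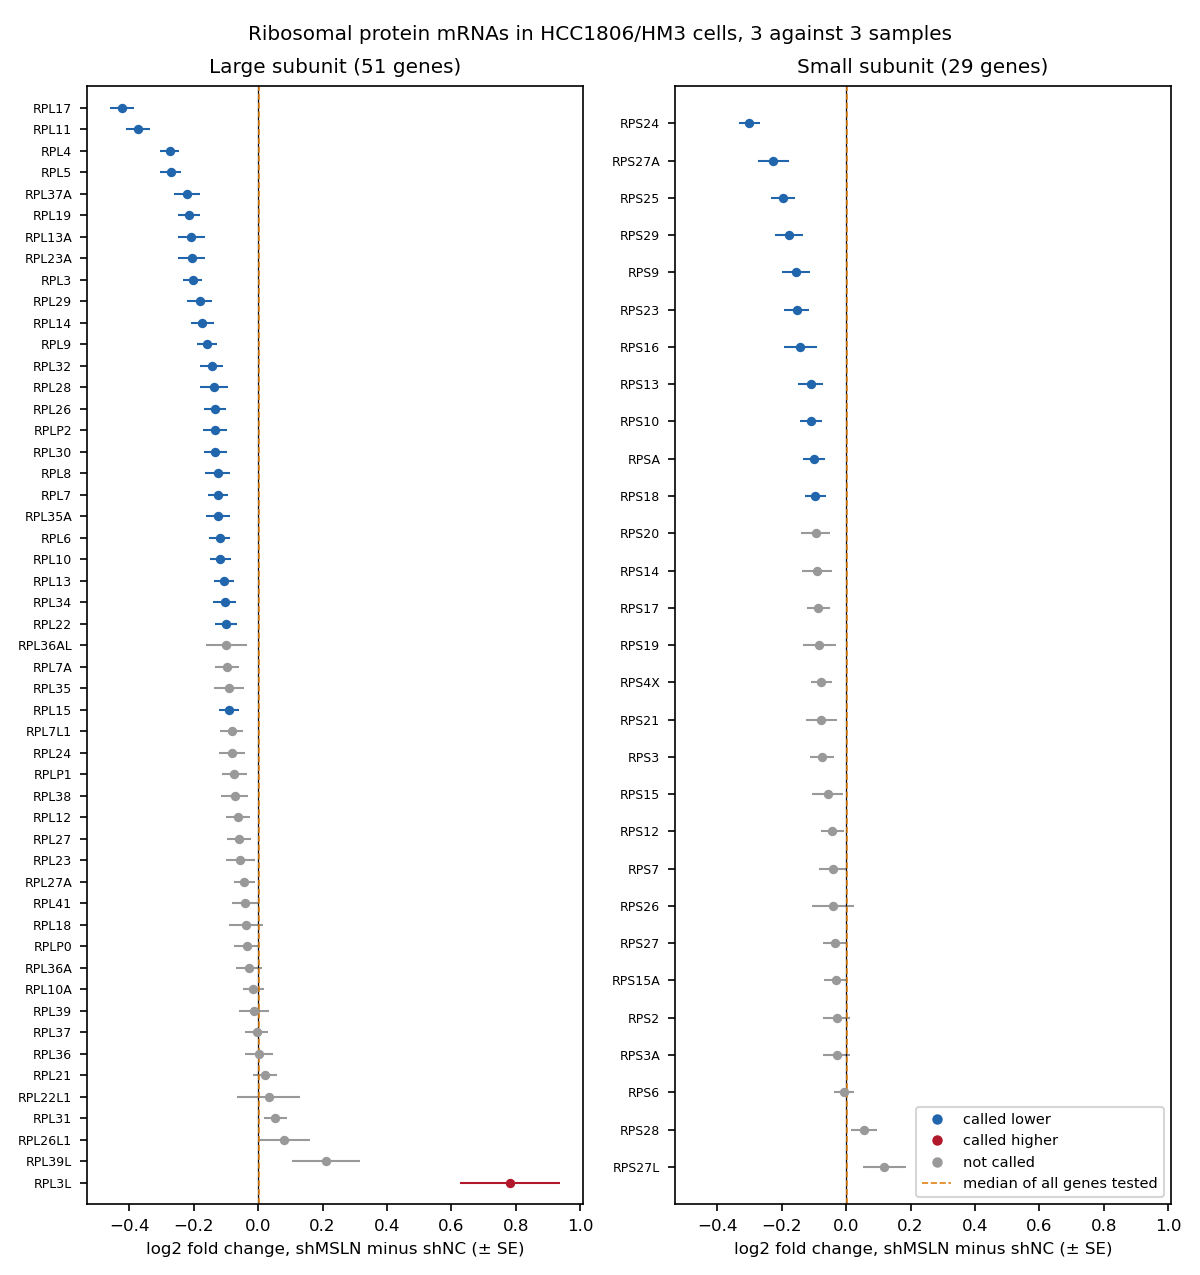
Log2 fold change (shMSLN minus shNC, edgeR, bars are standard errors, 3 samples per group) of 51 large and 29 small subunit genes, ordered by value, in blue where called lower, red where called higher and grey where not called. Most points lie left of 0, RPL17 at -0.42 is the lowest and RPL3L at 0.78 stands alone on the right.

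Both subunits moved the same way. In the large subunit, 27 of 52 genes (51.9%) were called lower and 1 higher, with a median log2 fold change of -0.10. In the small subunit, 12 of 32 (37.5%) were called lower and 0 higher, with a median of -0.08. Among genes at or above 100 CPM, 29.9% were called lower. Large subunit genes took up 4.13% ± 0.0895 of the counts in shNC and 3.89% ± 0.0299 in shMSLN, without overlap between samples. For small subunit genes the shares were 3.13% ± 0.0995 and 3.0% ± 0.0656, and the samples overlapped. The ratio of large to small subunit reads was 1.31, 1.34 and 1.32 in shNC and 1.27, 1.30 and 1.31 in shMSLN. The groups met at 1.31 on this scale, with the lowest shNC sample just above the highest shMSLN sample. The 2 replicate-1 samples had the lowest ratio of their group. With the mean of shMSLN replicates 2 and 3, 16 large (30.8%) and 6 small subunit genes (18.8%) were called lower. In that fit 22.6% of genes at or above 100 CPM were called lower, so the small subunit share was not above theirs. With all 6 samples and without the 7 paralogs tested, 39 of 77 genes were called lower, 73 lay below 0 and the median was -0.10.

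RPL17 fell the most. It lines the tunnel through which the new protein chain leaves the ribosome, and its gene (chr18:49488453-49492523, minus strand, GRCh38, GENCODE 29) hosts 3 small nucleolar RNAs (snoRNAs) in its introns. RPL17 was at 387, 362 and 389 CPM in shNC and at 288, 282 and 278 CPM in shMSLN. The groups did not overlap, and the log2 fold change was -0.42 ± 0.04 (SE, edgeR adjusted p = 8.59e-07). Reads of the overlapping read-through gene RPL17-C18orf32 cannot be told apart from it with certainty, and the log2 ratio of their summed levels was -0.41.

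The proteins of the 5S particle were both lower. RPL11 (chr1:23691742-23696835, plus strand) was at 792, 724 and 777 CPM in shNC and 603, 587 and 581 CPM in shMSLN. Its log2 fold change was -0.37 ± 0.04 (edgeR adjusted p = 3.45e-06). RPL5 (chr1:92831983-92841924, plus strand) was at 928, 901 and 941 CPM in shNC and 768, 759 and 767 CPM in shMSLN, a log2 fold change of -0.27 ± 0.03. In both genes every shMSLN sample lay well below every shNC sample. The pair of genes is also among the causes of Diamond-Blackfan anaemia, an inherited failure of red cell production. Of the 18 genes listed for that disease, 8 (44.4%) were called lower and 0 higher, near the 46.4% of all RP genes, with a median log2 fold change of -0.09. With shMSLN replicates 2 and 3 averaged, 5 of the 18 were lower (27.8%, near the 26.2% of all RP genes in that fit). RPS19, the gene most often mutated in it, was not called (log2 fold change -0.08).

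Of the 8 proteins around the exit tunnel, 5 (62.5%) were called lower in both fits, with a median of -0.17. The share over all RP genes was 46.4% with all 6 samples and 26.2% with shMSLN replicates 2 and 3 averaged. Over genes at or above 100 CPM it was 29.9% and 22.6%. RPL4, which reaches into the tunnel with a long loop, was at 1755, 1732 and 1769 CPM in shNC and 1466, 1429 and 1449 CPM in shMSLN. The difference, -0.28 ± 0.03 on the log2 scale (edgeR adjusted p = 6.53e-06), was many times the spread within either group. RPL19 was at 651, 650 and 685 CPM in shNC and 564, 573 and 574 CPM in shMSLN (log2 fold change -0.22). RPL23A, which forms a docking site for factors that meet the new chain, was called lower by 0.21 on the log2 scale, and RPL26 by 0.13. RPL35 (-0.09), RPL39 (-0.01, with its sign turned under 2 other scalings) and RPL31 (0.05) of the same region were not called.

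In the small subunit RPS24 fell the most. It was at 987, 946 and 991 CPM in shNC and at 808, 782 and 784 CPM in shMSLN, a log2 fold change of -0.30 ± 0.03 (edgeR adjusted p = 7.67e-06). RPS27A, which is made as a fusion with ubiquitin, was at 1060, 947 and 996 CPM in shNC and 920, 823 and 822 CPM in shMSLN. Here the first replicate was the highest of both groups and the gap between the groups was narrow, at a log2 fold change of -0.23 ± 0.05 (edgeR adjusted p = 0.00205). RPL37A of the large subunit completed the 8 largest falls, with 395, 387 and 429 CPM in shNC, 346, 346 and 348 CPM in shMSLN and a log2 fold change of -0.22.

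**Figure D3:**
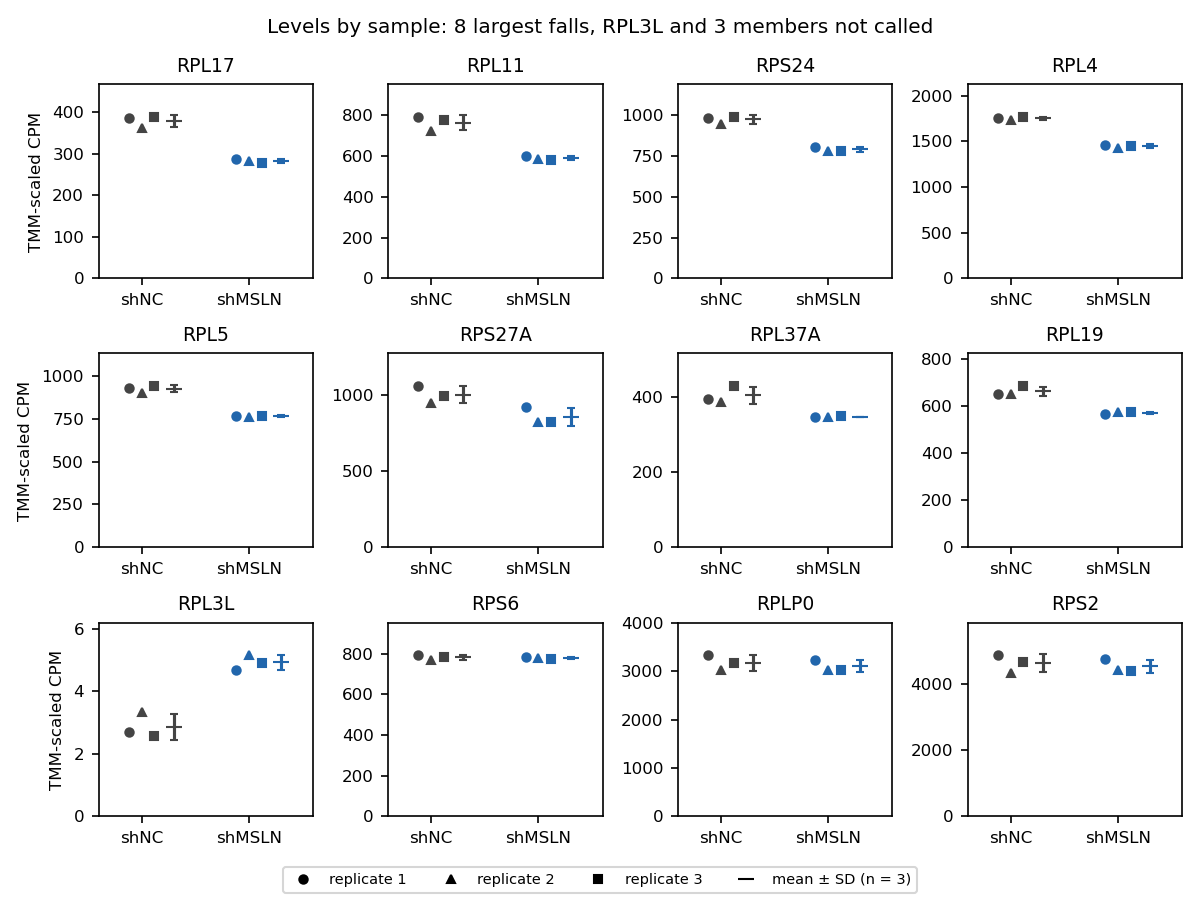
TMM-scaled CPM of 12 ribosomal protein genes in the 3 shNC (grey) and 3 shMSLN (blue) samples, with 1 symbol per replicate, the mean ± SD beside them and all axes from 0. The 8 largest falls show no overlap between groups, RPL3L rises from about 2.86 to 4.92 CPM, and RPS6, RPLP0 and RPS2 overlap.

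The other genes called lower with all 6 samples spanned both subunits. With shMSLN replicates 2 and 3 averaged, 22 of the 39 were called lower. In the large subunit they included RPL3, which lies near the peptidyl transferase centre, and RPL6, RPL7, RPL8, RPL9, RPL10, RPL13, RPL13A, RPL14, RPL15, RPL22, RPL28, RPL29, RPL30, RPL32, RPL34, RPL35A and RPLP2. In the small subunit they included RPS9, RPS10, RPS13, RPS16, RPS18, RPS23, RPS25, RPS29 and RPSA. RPL3, RPL7, RPL9, RPL13A, RPL14, RPL29, RPL32, RPS23, RPS25 and RPS29 stayed called lower in all alternative fits but that with a single shMSLN sample. RPL3 was at 1566, 1556 and 1560 CPM in shNC and 1371, 1346 and 1350 CPM in shMSLN, with narrow triplets in both groups. In 3 of the 39 genes, RPL28, RPS13 and RPS16, the groups overlapped although the test called them. RPS10 overlaps a read-through gene, RPS10-NUDT3, named here after its values were seen, which rose from 8.79 ± 1.44 to 17.2 ± 1.34 CPM. Their summed level still gave a log2 ratio of -0.09.

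Proteins that regulators of translation act on or through were mixed. RPS6, the target of S6 kinase, was at 794, 768 and 783 CPM in shNC and 783, 776 and 774 CPM in shMSLN, and its log2 fold change of -0.01 ± 0.03 was not called. On the TPM scale RPS6 was at 1273 ± 9.13 in shNC and 1297 ± 1.92 in shMSLN, and its sign turned under 2 other scalings. Of the stalk that recruits elongation factors, RPLP2 was called lower (log2 fold change -0.13), whereas RPLP0 (-0.04) and RPLP1 (-0.07) were not. RPLP0, often used as a reference gene, was at 3337, 3015 and 3168 CPM in shNC and 3239, 3026 and 3022 CPM in shMSLN, with overlapping groups. RPSA, also known as the laminin receptor precursor, was called lower by 0.10 on the log2 scale. With shMSLN replicates 2 and 3 averaged, RPSA, RPLP2, RPL10, RPL22 and RPS18 were no longer called. Of the ribosomal proteins whose symbols the rule does not match, RACK1 was lower (-0.11) with all 6 samples and was not called after that averaging, while FAU (-0.01) was not called in either fit.

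Of the 38 canonical genes not called, RPS28 had the highest value, at 0.06. Besides RPS28, the canonical genes with a value above 0 were RPL31 (0.05), RPL21 (0.02) and RPL36 (0.00), of which none was called. RPL37 (-0.00) and RPS6 were nearest to 0 from below.

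Of the 7 paralogs tested, 1 was called higher and 0 lower, with a median log2 fold change of 0.08. They are copies of RP genes that arose by duplication and are known for uneven use across tissues. RPL3L, the form found in heart and skeletal muscle, was at 2.68, 3.33 and 2.56 CPM in shNC and at 4.68, 5.16 and 4.91 CPM in shMSLN. Every shMSLN sample was above every shNC sample, and the log2 fold change was 0.78 ± 0.16 (edgeR adjusted p = 0.00138). The level was low throughout, at 0.109% of the level of its partner RPL3 on the TPM scale in shNC. RPL3 itself fell by 0.20 on the log2 scale. Coding sequences of both are 75.2% identical, with a longest shared stretch of 26 bases. Read length, and how reads were placed between both genes, were not examined.

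The remaining paralogs were not called. RPL39L, known from testis and from tumour lines, was at 13.5, 9.70 and 11.9 CPM in shNC and 13.4, 13.9 and 13.4 CPM in shMSLN, with overlapping groups and a log2 fold change of 0.21 ± 0.11. Its coding sequence is 94.9% identical to that of RPL39, with a shared stretch of 44 bases, so the split of reads between them is uncertain. RPS27L, a p53 target, had a log2 fold change of 0.12 ± 0.07, RPL26L1 of 0.08 ± 0.08 and RPL22L1 of 0.03 ± 0.10. RPL36AL (-0.10 ± 0.06) and RPL7L1 (-0.08 ± 0.04) had values below 0. RPL36AL was the only paralog near its partner in level, at 55.7% of RPL36A on the TPM scale, and the next, RPL7L1, was at 3.43% of RPL7.

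On the per-length TPM scale RP levels spanned a wide range, with a median of 1945 TPM and 56 of 84 genes at or above 1000 TPM in shNC. RPS2 (11052 ± 435 TPM, SD, n = 3) and RPS18 (10215 ± 178 TPM) were highest in shNC, and RPS2 was above RPS18 in every shNC sample. RPSA was at 6662 ± 161 TPM, below both in every sample. RPL3L (2.93 ± 0.471 TPM), RPS27L (9.30 ± 0.0964 TPM) and RPL22L1 (11 ± 0.436 TPM) were lowest, without overlap between neighbours in that order. In shMSLN the highest were again RPS2 (11088 ± 404 TPM) and RPS18 (9973 ± 266 TPM). This order depends on the length assigned to each gene. The deposited counts and FPKM imply a length of over 2000 bases for 17 of the 84 genes, such as 7524 bases for RPL37, whose median GENCODE 29 transcript has 637 bases.

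What the genes had in common beyond the naming rule was compared with their changes. The 28 genes that host a snoRNA had 15 called lower (53.6%) and a median of -0.10, and the 56 without had 24 called lower (42.9%) and a median of -0.09. Over all RP genes 46.4% were called lower. With shMSLN replicates 2 and 3 averaged the shares were 32.1% and 23.2%, against 26.2% of all RP genes. Across the 77 canonical genes the log2 fold change had a Pearson's r of 0.06 with GC content, -0.15 with transcript length and -0.04 with mean CPM, given as descriptions over genes that share the same 6 libraries. Across all 84 genes the r with mean CPM was -0.54, and the 7 paralogs, which are low, carried it. The libraries themselves tilted together. In 34 of the 84 genes replicate 1 was the highest sample of both groups, and over the 84 genes the excess of replicate 1 over the other replicates had an r of 0.65 between shNC and shMSLN. RPS27A above shows this tilt. Among the 39 genes called lower, all 39 lay below their shNC mean in shMSLN replicate 1 and 36 lay below every shNC sample, with a median of -0.13, compared with -0.15 in replicates 2 and 3. Replicate 1 took part in the calls, so this outcome was largely set by how the 39 genes were chosen. Of the 35 genes with whole-number counts in both shMSLN replicates 2 and 3, 21 were called lower, and the median was -0.10. Of the other 49, 18 were called lower, and the median was -0.08. The share called lower was thus above the 46.4% of all RP genes in the former and below it in the latter. A cause was not tested.

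Genes that make, regulate or work with RPs were compared by lists. The other TOP mRNAs, whose translation is under the same control, were lower in 15 of 21 (71.4%) and higher in 0, with a median log2 fold change of -0.15. With shMSLN replicates 2 and 3 averaged, 14 were lower (66.7%). Among genes at or above 100 CPM the shares called lower in these 2 fits were 29.9% and 22.6%. EEF1A1, the factor that brings aminoacyl-tRNA to the ribosome, was at 15302, 15157 and 15589 CPM in shNC and 11807, 11686 and 11696 CPM in shMSLN. The groups were far apart, at a log2 fold change of -0.39 ± 0.03 (edgeR adjusted p = 4.00e-08). Its exchange factor subunits EEF1B2 (-0.35) and EEF1D (-0.31) were lower as well, whereas EEF1G (-0.03) was not called. The EEF1A1 start (chr6:73521013-73521042, minus strand) holds a run of 9 pyrimidines and is shown for comparison with the RP windows.
EEF1A1: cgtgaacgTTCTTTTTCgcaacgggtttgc

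Initiation factors, some of which are also TOP mRNAs, were called lower in 16 of 33 (48.5%) and higher in 0, with a median of -0.12, and in 12 of 33 (36.4%) after the averaging. Over genes at or above 100 CPM the shares called lower in these 2 fits were 29.9% and 22.6%, and over all genes 18% and 13.5%. EIF3J (-0.42), a loosely bound subunit of initiation factor eIF3, and EIF5B (-0.41), which helps the subunits join, had the smallest adjusted p, followed by EIF4G2 (-0.28). EIF3G (-0.40) fell by more than EIF4G2. Of 12 elongation and termination factors 4 were lower in both fits (33.3%), all of them TOP mRNAs (EEF1A1, EEF1B2, EEF1D and EEF2), and the median was -0.03. With all 6 samples that share was near the 29.9% of genes at or above 100 CPM. Of 9 chaperones that carry RPs to the assembling ribosome, 5 were lower (55.6%) and 0 higher, with a median of -0.21, among them NAP1L1 (-0.24), PDCD2 (-0.31) and BCCIP (-0.22). After the averaging 4 chaperones were lower (44.4%).

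Of 60 ribosome biogenesis factors 14 were lower (23.3%, near the 18% of all genes) and 3 higher, with a median of -0.07. After the averaging 10 were lower (16.7%, against 13.5% of all genes in that fit) and 1 higher (1.67%, against 12.4%). TCOF1, the treacle protein that supports transcription of ribosomal DNA, was at 66.9, 58.3 and 56.8 CPM in shNC and 32.5, 31.3 and 32.2 CPM in shMSLN, and its log2 fold change was -0.92. UTP20, a factor for the early small subunit, was lower (-0.32), whereas NMD3, the export adaptor of the large subunit, was higher (0.33). RNA polymerase I subunits and factors were lower in 3 of 15 (20%, near the 18% of all genes), namely POLR1F (-0.33), POLR1E (-0.22) and POLR1D (-0.16). POLR1E was no longer called after the averaging.

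Among 17 regulators of RP synthesis 4 were lower (23.5%) and 1 higher, and the median was 0.00. After the averaging 3 were lower (17.6%) and 1 higher (5.88%), against 13.5% and 12.4% of all genes in that fit. MTOR, the kinase at the head of TOP mRNA control, was at 120, 115 and 119 CPM in shNC and 86.7, 92.9 and 91.7 CPM in shMSLN (log2 fold change -0.39 ± 0.04, edgeR adjusted p = 7.24e-06). EIF4EBP2 (-0.17), a repressor of translation initiation, MYC (-0.23), which drives RP transcription, and TSC1 (-0.15) were lower. MAF1, a repressor of RNA polymerase III, was higher (0.27). LARP1 was not called (-0.06). The 78 mitochondrial RPs, which build a separate ribosome, gave 17 lower (21.8%) and 4 higher with a median of -0.06. In the averaged fit 12 were lower (15.4%) and 3 higher (3.85%), against the same 13.5% and 12.4% of all genes. MRPS27 (-0.26), MRPS35 (-0.22) and MRPS5 (-0.26) had the smallest adjusted p. The shares called lower among biogenesis factors, RNA polymerase I genes, regulators and mitochondrial RPs were thus all near the 18% of all genes, and below the 29.9% of genes at or above 100 CPM. The shares called higher were 5%, 0%, 5.88% and 5.13% in that order, against 16.6% of all genes. Values lay below 0 in 73.3%, 73.3%, 47.1% and 69.2%, against 49.6% of all genes. Apart from the regulators, these lists therefore also leaned lower.

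**Figure D4:**
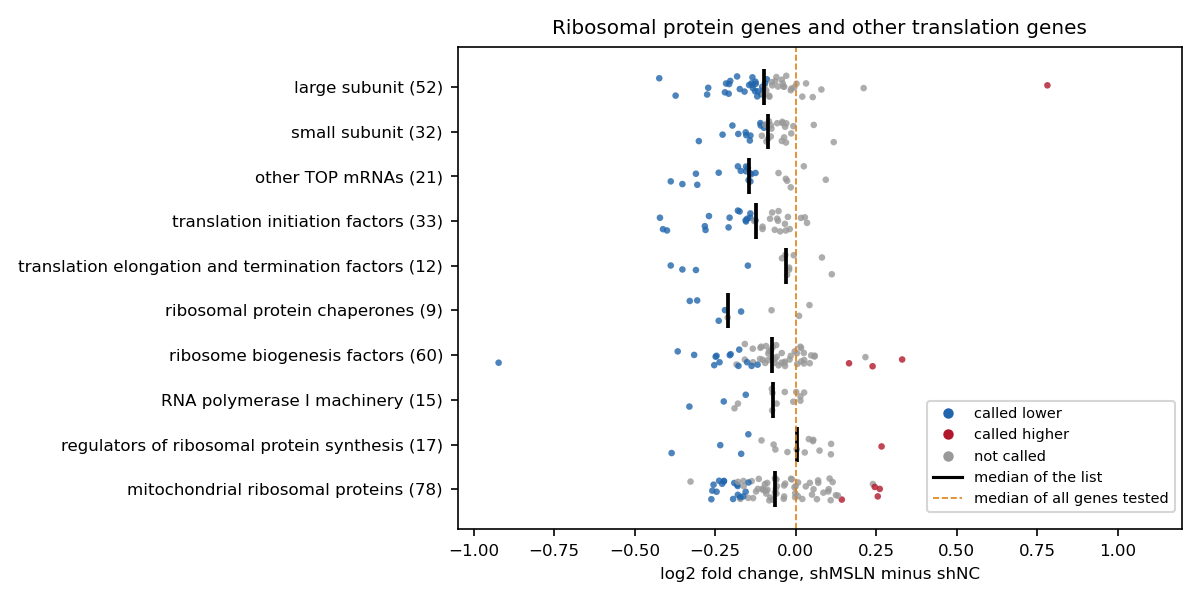
Log2 fold change (shMSLN minus shNC) of each gene in 10 lists, with the number tested in brackets, blue where called lower, red where called higher and grey where not called, a black bar at the median of each list and a dashed line at the median of all genes. The other TOP mRNAs (median -0.15) and both subunits (-0.10 and -0.08) lie left of the line, and the regulators (0.00) lie on it.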

How the data were processed

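The authors deposited a table with 1 row per gene holding estimated counts, FPKM and TPM for each sample. The submitters' processing notes name GRCh38.p13. The aligner and counting tool are not given in the sources used here, and libraries were poly(A)-selected. Samples were grouped by their labels. Genes with a missing mark in any sample (1287 of 17860) were left out. The deposited estimated counts were rounded, filtered with filterByExpr, scaled by TMM and tested with edgeR 4.0.16 (quasi-likelihood test, Benjamini-Hochberg adjustment over 14552 genes, threshold 0.05) in R 4.3.3. Scripts were tested on simulated data. CPM are TMM-scaled, and TPM and FPKM were used as the authors deposited them, for levels and lengths only. Paralog sequences were aligned with Biopython 1.88. Alternatives used DESeq2 1.42.0, limma 3.58.1, other scalings and filters, a replicate block, a length and GC trend, and fewer samples.

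The RP genes and lists were chosen with earlier results of these data known. The genes named were the 8 largest rises and falls among called RP genes, every paralog with its partner, RPL5, RPL11, RPLP0, RPLP1, RPLP2, RPSA, RPS6, RPS27A, the 3 highest and 3 lowest by TPM, genes with a missing mark, the 3 called genes with the smallest adjusted p of each other list, and MSLN. Any further gene in the text completes its group, and was picked with its values in view. Some genes that these rules name are not reported here, and the counts still include them.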

Additional observations from a re-analysis of the deposited data

How the results depend on the processing

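The median log2 fold change of RP genes stayed below 0 in all 19 alternatives, between -0.06 and -0.12, and 59 of 84 genes had a value below 0 in every one. RP genes called lower numbered 39 in the reported fit, 37 to 39 under RLE scaling, both other filters, DESeq2, limma-voom and robust estimation, 26 under upper-quartile scaling and 28 with total counts only. DESeq2 called 3863 genes in all, against 5032. Upper-quartile scaling and total counts only left 7 small subunit genes called lower instead of 12. They turned the signs of RPL39 (0.0163 and 0.01732) and RPS6 (0.0219 and 0.02263), and total counts only that of RPL36A (0.0008277).

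With 1 replicate left out, RP genes called ranged from 23 to 52, those called lower from 22 to 51, large subunit genes from 16 to 33 and small subunit genes from 6 to 18. The lowest counts came without shMSLN replicate 2 (22 lower), shMSLN replicate 3 (24) and shNC replicate 3 (24). Signs turned for RPL22L1 (-0.0171 to 0.07762), RPL39 (-0.06969 to 0.01671), RPLP0 (-0.07031 to 0.001116), RPS6 (-0.01868 to 0.002834) and RPS2 (-0.0741 to 0.009578), none of which was called. With shMSLN replicates 2 and 3 averaged, an alternative chosen after seeing the data, 23 RP genes were called and 22 were lower, 16 large and 6 small. With shMSLN replicate 1 as the only shMSLN sample, which was assumed to vary like shNC, 1797 genes were called, 7 RP genes were called and all 7 were lower (RPL11, RPL17, RPL19, RPL23A, RPL4, RPL5 and RPS24; 6 large and 1 small), and 5 other TOP mRNAs were lower. That fit gave RPL22L1 -0.06054, RPL39 0.005769, RPLP0 0.03152, RPS6 0.004699 and RPS2 0.04281. It has fewer samples, and no further cause was tested.

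Samples with the same replicate number had correlations of their deviations of 0.165, 0.0764 and 0.0718 over 14552 genes, and each sample correlated best with its own number, which is a hint from the data and not the design. With the replicate block, 45 RP genes were called lower and 5789 genes in all. Removing a length and GC trend, also chosen after seeing the data, gave 44 lower, and 47 with the replicate block. Leaving aside the fit with a single shMSLN sample, 21 RP genes were called lower in every alternative. RPL11, RPL17, RPL19, RPL23A, RPL4, RPL5 and RPS24 were among them. Depth limits RPL3L and RPL10L, the least abundant RP genes.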
